A study of Homo sapiens with 2 samples.

Results

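The genes described here are 41 genes of the G1/S transition and of DNA replication, measured by RNA sequencing in C4-2B cells that received vehicle or the ACK1 inhibitor (R)-9b. They were chosen by gene symbol from a list of names, with earlier results of these data known but by no rule on the measured values, out of 60671 genes in the deposited count table. All 41 were found under 1 identifier each, and all 41 had at least 10 counts over both libraries, the minimum used for every ratio below. The lowest count of any of them in a library was 349, for POLE2 in (R)-9b, and the highest was 21546, for CCND1 in (R)-9b.

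A cell commits to DNA replication when cyclin D with CDK4 or CDK6, and then cyclin E with CDK2, phosphorylate RB family pocket proteins and free the activating E2F factors. E2F factors drive transcription of the genes that license origins, unwind DNA, synthesize the new strands and supply deoxynucleotides, and the atypical E2F factors later repress many of the same genes. Licensing, the loading of the MCM helicase by ORC, CDC6 and CDT1, is limited to the time before S phase in part by geminin, the protein that binds CDT1.

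C4-2B is an established human castration-resistant prostate cancer line. Cells were given vehicle in one arm and 1 µM (R)-9b overnight in the other, and 1 library was made from each, so that no value below has a replicate check and no p-value is given. Both arms are the same unmodified line in culture, and the labels state no other agent, clone or genotype for either. The libraries held 65207444 gene counts (vehicle) and 57653965 gene counts ((R)-9b).

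The labels call the cells breast cancer. All 7 prostate luminal markers examined were detected, at a summed 4871 CPM (counts divided by the scaled library size, on the usual CPM scale) with vehicle and 8321 CPM with (R)-9b. The 4 breast markers summed to 0.751 and 0.602 CPM, and SCGB2A2 was at 0 in both libraries. The 4 immune markers summed to 0.0300 and 0.0354 CPM, and 4 stromal markers to 17.3 and 36.7 CPM, nearly all from COL1A1. TNK2, which encodes the drug target ACK1, had 6946 counts in vehicle and 5292 in (R)-9b, a log2 ratio of -0.15 (-0.21 to -0.10). Transcripts of the mitochondrial genome made up 1.49% of counts in vehicle and 9.54% in (R)-9b, and the part of this difference in the ratios below was not tested beyond a scaling computed without those transcripts, under which the numbers of the 41 genes above or below a ratio of 1 and past 1.5-fold were the same.

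Ratios are (R)-9b over vehicle after TMM scaling, a method that sets the ratios of most genes around 1, and are given on the log2 scale with the exact 95% interval that the 2 counts allow. These intervals cover counting error only. Reads without molecular identifiers are not independent molecules, so that the true spread is wider. Of the 41 genes, 14 (34.1%) had the whole interval above a ratio of 1 and 21 (51.2%) had it below, while 6 intervals included 1. Among all 23446 genes tested, 29.8% were above and 31.1% below, and among the 14791 protein-coding genes 35.4% were above and 37% below. Intervals narrow with depth, and of the 10131 protein-coding genes with at least the counts of the lowest of the 41, 3873 were above and 4444 below. The median log2 ratio of the 41 genes was -0.11, against -0.0049 over all genes tested.

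Differences past 1.5-fold were few. The interval lay wholly above 1.5 in 4 genes (9.76%), CCNE1, E2F3, CCND1 and CCND3, against 8.71% of all genes tested. It lay wholly below 1/1.5 in another 4 (9.76%), E2F7, CDC45, CDT1 and RRM2, against 7.74% of all genes tested. These shares are near the background, so the replication genes as a list did not stand out by how many of them passed 1.5-fold. Scaling by total counts lowers every log2 ratio by 0.06, and under it 3 genes lay above 1.5 and 7 below 1/1.5. By the ratio alone, without its interval, 4 lay above and 8 below. When a coefficient of variation of 0.1 in each library was added to the counting error, 6 genes stayed above a ratio of 1 (CCNE1, E2F3, CCND1, CCND3, CDC25A and E2F2) and 10 stayed below (ORC1, GINS2, TK1, CDC6, TYMS, RRM2, GMNN, CDT1, CDC45 and E2F7). The shares of all genes tested were not computed under total-count scaling, the ratio alone or the added variation. The counts under these alternatives therefore have no background, and the shares given above do not serve as one.

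As a share of all counts the 41 genes summed to 0.286% in vehicle and 0.262% in (R)-9b. As a share of counts without mitochondrial transcripts the sums were 0.291% and 0.290%. The list total was nearly level only on the share without mitochondrial transcripts. In RNA from whole cultures, fewer cells in S phase and less RNA per cell cannot be told apart.

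**Figure D1:**
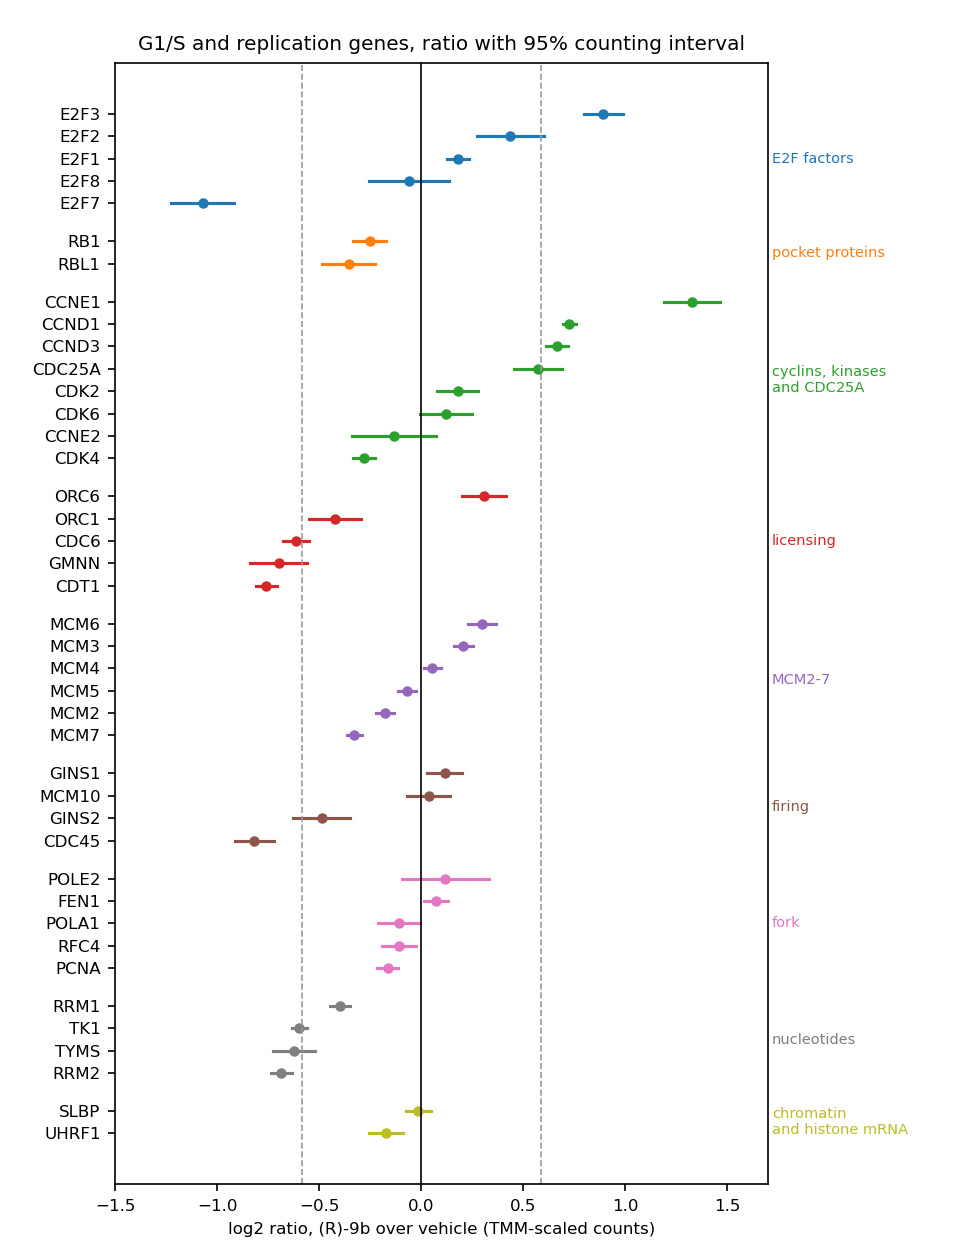
Log2 ratio of each of the 41 genes, (R)-9b over vehicle, on the x axis, with the genes on the y axis grouped and coloured by role. Points are ratios of TMM-scaled counts, bars are exact 95% counting intervals from 1 library per condition, and dashed lines mark 1.5-fold. CCNE1 lies farthest right at 1.33 and E2F7 farthest left at -1.07, and all 4 nucleotide genes lie left of 0.

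The reference promoters of these genes were searched for short sequence words. E2F factors drive many genes of these steps, so a high share with an E2F word is not independent of how the list was chosen. RefSeq promoter windows of GRCh38.p14, each 300 bases long and mostly upstream of a transcription start, were matched by symbol for 35 of the 41 genes. The windows were searched on both strands for 4 words that fit the E2F consensus, TTTCCCGC, TTTCGCGC, TTTGCCGC and TTTGGCGC, and for CCAAT and TTTGAA, the cores of the CCAAT box and of the cell cycle homology region. None of the words contains another. An E2F word was present for 19 of the 35 genes (54.3%), against 3.99% of the 27305 genes in the promoter table. CCAAT was present for 62.9% of the 35 genes and for 39.7% of all genes. TTTGAA was present for 5.71% and 18.2%. Counted by window, an E2F word was in 20 of 49 windows (40.8%) of these genes and in 3.31% of all 35116 windows.

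An E2F word did not go with 1 direction. It was present for 7 of the 11 matched genes whose interval lay above a ratio of 1, for 11 of the 20 below, and for 1 of the 4 whose interval included 1. MCM6 held the most, with 4 matches. CCNE1, E2F7 and CDC45, which had large ratios, held no E2F word in their windows, which says only that these letters are not there. The 3 windows below belong to the genes with the largest ratios in either direction among those that hold an E2F word. They are shown because 1 of these genes was higher and the others lower in (R)-9b. Each holds a word of the same family near the RefSeq start site of its window. Capitals mark the matched E2F word. It begins 53 bases before that start site in E2F3, 35 bases before it in CDT1 and 80 bases before it in GMNN. These are not the starts of the most abundant annotated transcripts, which lie outside the windows. E2F3-201 and E2F3-202 start at bases 20402167 and 20403679, CDT1-201 at 88803213 and GMNN-201 at 24774938.
E2F3 promoter, chr6:20401629-20401928, plus strand: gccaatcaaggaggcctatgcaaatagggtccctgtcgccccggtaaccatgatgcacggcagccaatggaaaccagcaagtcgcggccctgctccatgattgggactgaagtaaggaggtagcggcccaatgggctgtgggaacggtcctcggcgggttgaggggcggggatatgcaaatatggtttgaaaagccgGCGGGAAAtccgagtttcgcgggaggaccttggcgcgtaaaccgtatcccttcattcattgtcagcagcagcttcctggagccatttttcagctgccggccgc
CDT1 promoter, chr16:88803539-88803838, plus strand: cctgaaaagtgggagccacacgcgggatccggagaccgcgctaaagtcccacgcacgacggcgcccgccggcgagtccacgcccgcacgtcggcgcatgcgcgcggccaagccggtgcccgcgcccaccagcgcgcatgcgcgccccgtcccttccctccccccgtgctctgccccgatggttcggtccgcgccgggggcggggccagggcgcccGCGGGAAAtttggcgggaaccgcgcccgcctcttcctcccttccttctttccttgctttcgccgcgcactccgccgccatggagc
GMNN promoter, chr6:24775163-24775462, plus strand: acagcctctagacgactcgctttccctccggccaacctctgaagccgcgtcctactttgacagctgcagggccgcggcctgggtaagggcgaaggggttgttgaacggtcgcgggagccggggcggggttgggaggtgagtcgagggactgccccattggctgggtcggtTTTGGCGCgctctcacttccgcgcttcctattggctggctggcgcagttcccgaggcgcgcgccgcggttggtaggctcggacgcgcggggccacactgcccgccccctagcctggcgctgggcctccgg
E2F3 and CDT1 hold the same 8 letters in the same orientation, GCGGGAAA, and these genes lay on opposite sides of 0. A match is a description of the sequence and not a measured binding site.

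The activating E2F factors were higher in (R)-9b, and 1 of the 2 atypical ones was lower. E2F3, an activator, had 1426 counts in vehicle and 2246 in (R)-9b, a log2 ratio of 0.89 (0.80 to 0.99), or 1.86-fold higher. The gene (ENSG00000112242) spans chr6:20401906-20493715 on the plus strand of GRCh38. E2F2, a second activator, had 576 and 661 counts and a log2 ratio of 0.44 (0.27 to 0.60). E2F1, the best known activator and the most abundant of the 5 E2F genes among the 41, had 5680 and 5458 counts, which after scaling is a log2 ratio of 0.18 (0.13 to 0.23). The raw E2F1 count was thus lower in the shallower (R)-9b library, and its scaled level was slightly higher. Under total-count scaling E2F1 was at 0.12. With a coefficient of variation of 0.1 added, the E2F1 interval included 0 (-0.22 to 0.58), and those of E2F2 and E2F3 stayed above it.

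E2F7, an atypical repressor of the same target genes, had the lowest ratio of the 41. Its 1195 counts in vehicle and 483 in (R)-9b gave a log2 ratio of -1.07 (-1.22 to -0.92), or 52.3% lower. The gene (ENSG00000165891) lies at chr12:77021247-77065580 on the minus strand. Of all genes tested, 8.89% had a lower ratio than E2F7. The other atypical repressor, E2F8, had 479 and 390 counts, and its interval included 0 at -0.06 (-0.26 to 0.14), so a difference of E2F8 was not detectable at this depth.

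Levels within a library can be compared without scaling when each gene is divided by its exon length. The per-kb level of E2F1, E2F2 and E2F3 together was 8.68 times that of E2F7 and E2F8 together in vehicle and 16.0 times in (R)-9b. This ratio of levels was 1.85 times as large in (R)-9b (95% counting interval 1.69 to 2.02). E2F1 alone was at 34.1 scaled CPM per kb of exon in vehicle and 38.6 in (R)-9b, E2F3 at 4.15 and 7.70, and E2F2 at 1.59 and 2.15, so that E2F1 sets most of the activator sum.

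The pocket proteins, which hold E2F factors in check, were both lower. RB1, the retinoblastoma protein, had 3068 and 2183 counts and a log2 ratio of -0.25 (-0.33 to -0.17). RBL1, which encodes p107, had 1196 and 793 counts and a log2 ratio of -0.36 (-0.49 to -0.22). Neither passed 1.5-fold, and both intervals included 0 once a coefficient of variation of 0.1 was added. The level of the 3 activators over RB1 and RBL1 together went from 3.92 in vehicle to 5.80 in (R)-9b, 1.48 times as large (1.399 to 1.567).

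Of the 4 genes past 1.5-fold upward, 3 were cyclins of the G1 phase. CCNE1, cyclin E1, the partner of CDK2 at S phase entry, had 641 counts in vehicle and 1362 in (R)-9b, and was the highest of the 41 genes with a log2 ratio of 1.33 (1.19 to 1.46), or 2.51-fold. The gene (ENSG00000105173) lies at chr19:29811898-29824308 on the plus strand. Of all genes tested, 7.94% had a higher ratio. CCND1, cyclin D1, had 15353 and 21546 counts and a log2 ratio of 0.73 (0.70 to 0.76). CCND3, cyclin D3, had 4760 and 6399 counts and a log2 ratio of 0.66 (0.61 to 0.72). These cyclins were the only genes of the role past 1.5-fold.

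The second cyclin E gene did not follow the first. CCNE2, cyclin E2, had 454 and 351 counts and a log2 ratio of -0.13 (-0.34 to 0.07), an interval that includes 0. Per kb of exon, CCNE1 was at 2.44 times the level of CCNE2 in vehicle and 6.69 times in (R)-9b, a change in the ratio of levels of 2.75 (2.32 to 3.25). For the cyclin D genes the same quantity hardly moved, with CCND1 at 3.88 times the level of CCND3 in vehicle and 4.05 times in (R)-9b, a change of 1.04 (1.00 to 1.09).

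The kinases these cyclins bind all had smaller ratios than CCNE1, CCND1 and CCND3. CDK2 had 1653 and 1586 counts and a log2 ratio of 0.18 (0.08 to 0.28), so CCNE1 went from 0.592 to 1.31 times the per-kb level of CDK2. CDK4 had 6633 and 4630 counts and was lower at -0.28 (-0.34 to -0.23). CDK6, the second cyclin D kinase, had 1069 and 986 counts, and its interval included 0 at 0.12 (-0.01 to 0.25). CDK4 was at 24.0 times the per-kb level of CDK6 in vehicle and 18.2 times in (R)-9b. CDC25A, the phosphatase that removes inhibitory phosphates from CDK2, had 1040 and 1312 counts and a log2 ratio of 0.57 (0.45 to 0.69). Of the 8 genes of this role, 5 were above a ratio of 1, 1 was below and 2 intervals included 1, with a median log2 ratio of 0.38. Protein-coding genes with at least the counts of the lowest gene of the list were above in 38.2% and below in 43.9%. With a coefficient of variation of 0.1 added, CCNE1, CCND1, CCND3 and CDC25A stayed above a ratio of 1. The log2 intervals of CDK2 (-0.23 to 0.59) and CDK4 (-0.68 to 0.12) then included 0.

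**Figure D2:**
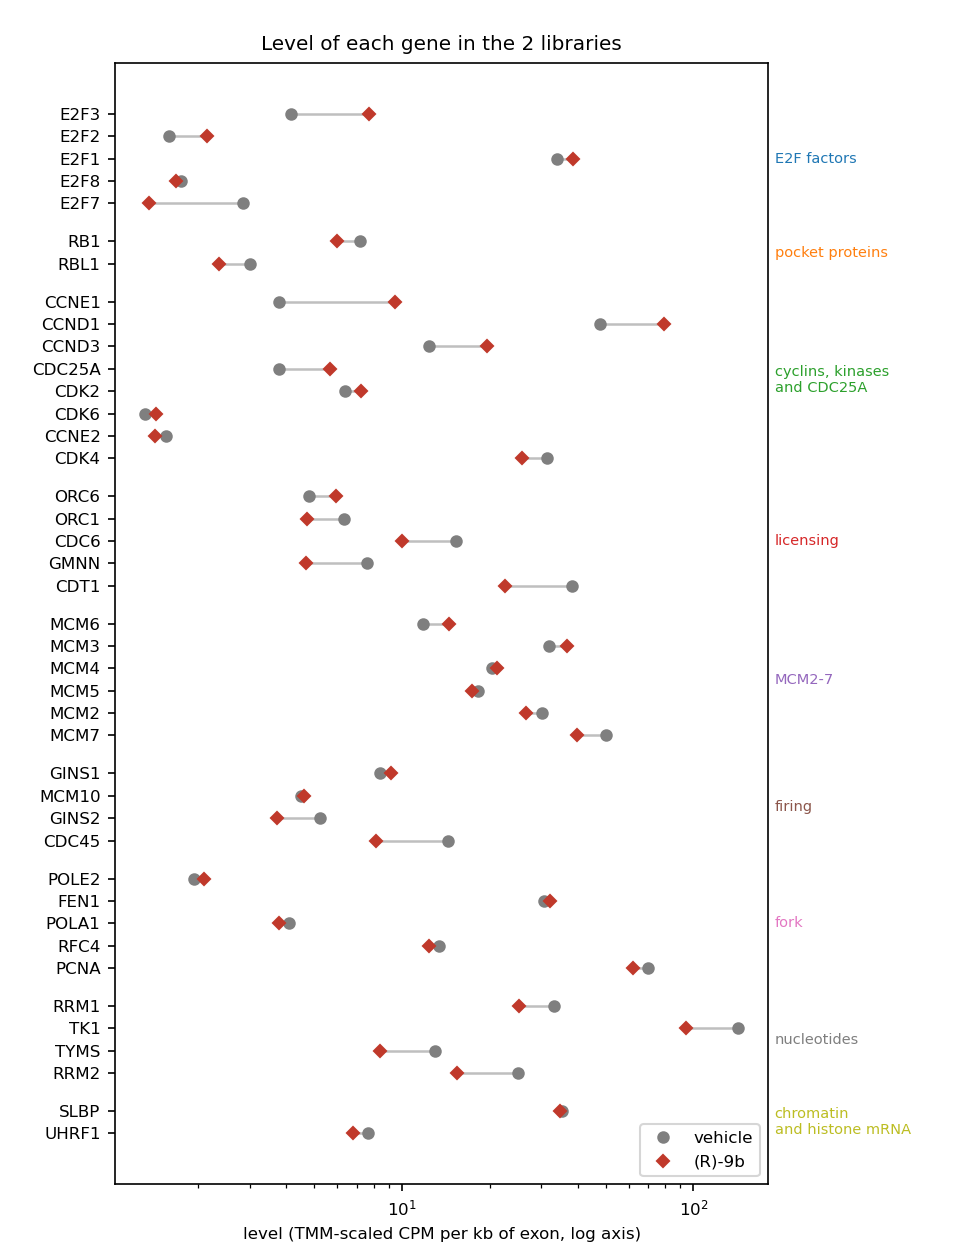
Level of each of the 41 genes in vehicle (grey circles) and (R)-9b (red diamonds), in TMM-scaled CPM per kb of exon on a log x axis, with genes on the y axis by role. Each point is 1 library, and the line joins the 2 libraries of a gene. TK1 was the most abundant in both, at 143 in vehicle and 94.2 in (R)-9b, and CCND1 lay at 47.7 and 79.0.

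Genes of origin licensing were mostly lower in (R)-9b, with 4 of 5 below a ratio of 1 and a median log2 ratio of -0.61. Among protein-coding genes with at least the counts of the lowest of the 41, 43.9% were below. CDT1, the factor that brings the MCM helicase to the origin, had 8492 counts in vehicle and 4257 in (R)-9b, a log2 ratio of -0.76 (-0.81 to -0.71), or 40.9% lower. GMNN, geminin, the inhibitor of CDT1, had 1248 and 652 counts and a log2 ratio of -0.70 (-0.84 to -0.56). The inhibitor and its target were thus lower by a like amount, and CDT1 was at 5.05 times the per-kb level of GMNN in vehicle and 4.85 times in (R)-9b. The change in that ratio of levels was 0.960 (0.867 to 1.06), an interval that includes 1.

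The loader and the origin recognition complex were split. CDC6, the ATPase that loads MCM with CDT1, had 5656 and 3133 counts and a log2 ratio of -0.61 (-0.68 to -0.55). ORC1, the largest subunit of the origin recognition complex, had 1323 and 838 counts and was at -0.42 (-0.55 to -0.30). ORC6, the smallest subunit, had 1375 and 1443 counts and was higher, at 0.31 (0.20 to 0.42). CDT1 was the only licensing gene past 1.5-fold, and the intervals of CDC6 and GMNN included the limit.

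The 6 subunits of the MCM2-7 helicase, which form a ring in equal numbers, had ratios on both sides of 1, though all 6 intervals included 0 once a coefficient of variation of 0.1 was added. MCM6 had 3233 counts in vehicle and 3370 in (R)-9b, a log2 ratio of 0.30 (0.23 to 0.37). MCM3 followed, with 7754 and 7583 counts and a log2 ratio of 0.21 (0.16 to 0.25). MCM4 had 9446 and 8323 counts and a log2 ratio of 0.06 (0.01 to 0.10), which turned to -0.0050 under total-count scaling. On the lower side were MCM5 (8887 and 7183 counts) at -0.07 (-0.11 to -0.02) and MCM2 (9861 and 7390 counts) at -0.18 (-0.22 to -0.13). MCM7 was the lowest, with 14645 and 9898 counts and a log2 ratio of -0.33 (-0.36 to -0.29).

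The order of the ratios ran against the order of the levels at both ends. MCM7 had the highest per-kb level in vehicle, 50.2, and the lowest ratio, and MCM6 had the lowest level, 11.8, and the highest ratio. Between them, MCM3 (31.9) and MCM2 (30.2) had like levels and ratios on opposite sides of 0. The vehicle count enters both the level and the ratio, so the 2 orders are not independent. The highest and the lowest of the 6 levels were 4.25-fold apart in vehicle and 2.76-fold apart in (R)-9b. The sum of the 6 levels was 163 in vehicle and 156 in (R)-9b. None of the 6 passed 1.5-fold. Estimated transcript counts, which list MCM2 and MCM7 in part, gave log2 ratios of -0.49 and 0.69 for them. In vehicle the listed transcripts held 0.0231 of the gene counts of MCM2 and 0.00789 of those of MCM7. Both of these ratios thus cover little of the gene.

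Firing turns the loaded MCM ring into a working helicase by adding CDC45 and the GINS complex. CDC45 had 2725 counts in vehicle and 1310 in (R)-9b, a log2 ratio of -0.82 (-0.92 to -0.72), and was the second lowest of the 41 genes. GINS2 had 1134 and 686 counts and was at -0.49 (-0.63 to -0.35). GINS1, a subunit of the same 4-protein complex, had 2283 and 2096 counts and was slightly higher at 0.11 (0.03 to 0.20). MCM10, a factor that helps activate the helicase, had 1632 and 1419 counts with an interval that included 0, at 0.04 (-0.07 to 0.14).

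Genes of the replication fork changed little. PCNA, the sliding clamp, had 6832 and 5167 counts and a log2 ratio of -0.17 (-0.22 to -0.11). RFC4, a subunit of the clamp loader, had 2669 and 2100 counts and was at -0.11 (-0.19 to -0.03). POLA1, the catalytic subunit of the polymerase that makes primers, had 1720 and 1354 counts and a ratio of 0.928, with an interval that ended just under 1 (0.864 to 0.997). FEN1, the nuclease that trims the flaps of lagging strand fragments, had 5046 and 4504 counts and was at 0.07 (0.02 to 0.13). POLE2, a subunit of the leading strand polymerase, had the fewest counts of the 41 genes, 379 and 349, and its interval included 0 at 0.12 (-0.10 to 0.33). Of these 5 genes, 3 were below a ratio of 1, 1 was above, and all 5 intervals included 0 with the added coefficient of variation. Protein-coding genes with at least the counts of the lowest of the 41 were below in 43.9% and above in 38.2%.

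All 4 genes of deoxynucleotide supply were lower in (R)-9b, with a median log2 ratio of -0.61. RRM2, the small subunit of ribonucleotide reductase, had 8832 counts in vehicle and 4654 in (R)-9b, a log2 ratio of -0.69 (-0.74 to -0.64), or 37.9% lower. RRM1, the large subunit, had 9203 and 5922 counts and was at -0.40 (-0.45 to -0.35). Its interval included 0 once a coefficient of variation of 0.1 was added. Both subunits were lower, RRM2 more so, and RRM2 went from 0.753 to 0.617 times the per-kb level of RRM1, a change of 0.819 (0.780 to 0.859). TYMS, thymidylate synthase, had 2132 and 1175 counts and a log2 ratio of -0.62 (-0.73 to -0.52). TK1, the thymidine kinase of the salvage route, had 17659 and 9901 counts and a log2 ratio of -0.60 (-0.63 to -0.56). Only RRM2 passed 1.5-fold with its whole interval. With estimated transcript counts, in which these 4 genes are listed in part, TK1 was at -0.07, TYMS at -0.25 and RRM1 at 0.84.

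The last pair of genes acts on newly made chromatin and on histone mRNA. UHRF1, which brings the maintenance methyltransferase to replicated DNA, had 2626 and 1977 counts and a log2 ratio of -0.17 (-0.26 to -0.09). SLBP, the protein that binds the stem loop of histone mRNA, had 4758 and 3994 counts and an interval that included 0, at -0.01 (-0.08 to 0.05).

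Other genes of the same steps, from lists set out by role, also differed to both sides. Of 84 such genes tested, 30 were above a ratio of 1 (35.7%) and 32 below (38.1%), shares near the 35.4% and 37% of all protein-coding genes. Of the 84, 3 lay above 1.5 and 3 below 1/1.5, and the median log2 ratio was -0.03. In each list the genes named here are the highest and the lowest by the end of the interval nearest 0. Among 7 CDK inhibitors, 1 was above a ratio of 1 and 3 were below. CDKN1B, which encodes p27, an inhibitor of cyclin E with CDK2, had 5034 counts in vehicle and 1617 in (R)-9b, a log2 ratio of -1.40 (-1.48 to -1.32), lower than any of the 41 genes. CDKN1A, which encodes p21, had 16437 and 10071 counts and was at -0.47 (-0.50 to -0.43). CDKN2A had 1672 and 1622 counts and was at 0.19 (0.09 to 0.29).

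Among 11 further E2F, DP and DREAM complex genes, 5 were above and 5 below. E2F4, a factor that acts mostly in repression with pocket proteins, had 2642 and 3803 counts and a log2 ratio of 0.76 (0.69 to 0.84), on the side of the activators rather than of E2F7. LIN54, the DNA-binding subunit of DREAM, had 1776 and 1004 counts and was at -0.59 (-0.70 to -0.47). Of 7 further cyclins and ubiquitin ligase genes, 2 were above and 4 below, while CCND2 and CCNA1 had at most 5 counts in a library and were not tested. DTL, the adaptor that directs CDT1 to degradation, had 2149 and 1086 counts and a log2 ratio of -0.75 (-0.85 to -0.64), close to the value of CDT1. SKP2, an F-box protein that targets p27, had 1326 and 1379 counts and was at 0.29 (0.18 to 0.40).

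In the lists that extend licensing, firing and the fork, the counts on both sides were near equal. Of 15 further firing and licensing genes, 6 were above and 5 below, from DBF4, the activator of the CDC7 kinase (922 and 1083 counts), at 0.47 (0.34 to 0.60) to MCMBP (5786 and 3839 counts) at -0.35 (-0.41 to -0.29). Of 28 further fork genes, 9 were above and 9 below. PRIM1, the catalytic subunit of primase and a partner of POLA1, had 1185 and 481 counts and a log2 ratio of -1.06 (-1.22 to -0.91), whereas POLA1 itself was near 0. RNASEH2A was highest at 2.05 (0.87 to 3.39), but on 8 and 28 counts.

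Nucleotide genes outside the 41 did not share the direction of the 4 described above. Of 9, 5 were above and 2 below. SLC29A1, a nucleoside transporter, had 2457 and 4154 counts and was the highest of them at 1.00 (0.92 to 1.07). Of 7 chromatin replication genes, 2 were above and 4 below, from NASP (6093 and 5749 counts) at 0.15 (0.10 to 0.21) to HELLS (724 and 453 counts) at -0.44 (-0.61 to -0.27).

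As a comparison from a later phase of the cycle, 20 G2/M genes were set beside the 41. Of these, 7 were above a ratio of 1 (35%) and 10 below (50%), beside 35.4% and 37% of all protein-coding genes tested. None passed 1.5-fold, and the median log2 ratio was -0.10, against -0.11 for the 41 genes. CDC20, the activator of the anaphase-promoting complex, had 5674 and 6889 counts and was highest at 0.52 (0.47 to 0.57), and CDC25C had 659 and 393 counts and was lowest at -0.51 (-0.69 to -0.33). The difference between the lists has no test with 1 library per condition.

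**Figure D3:**
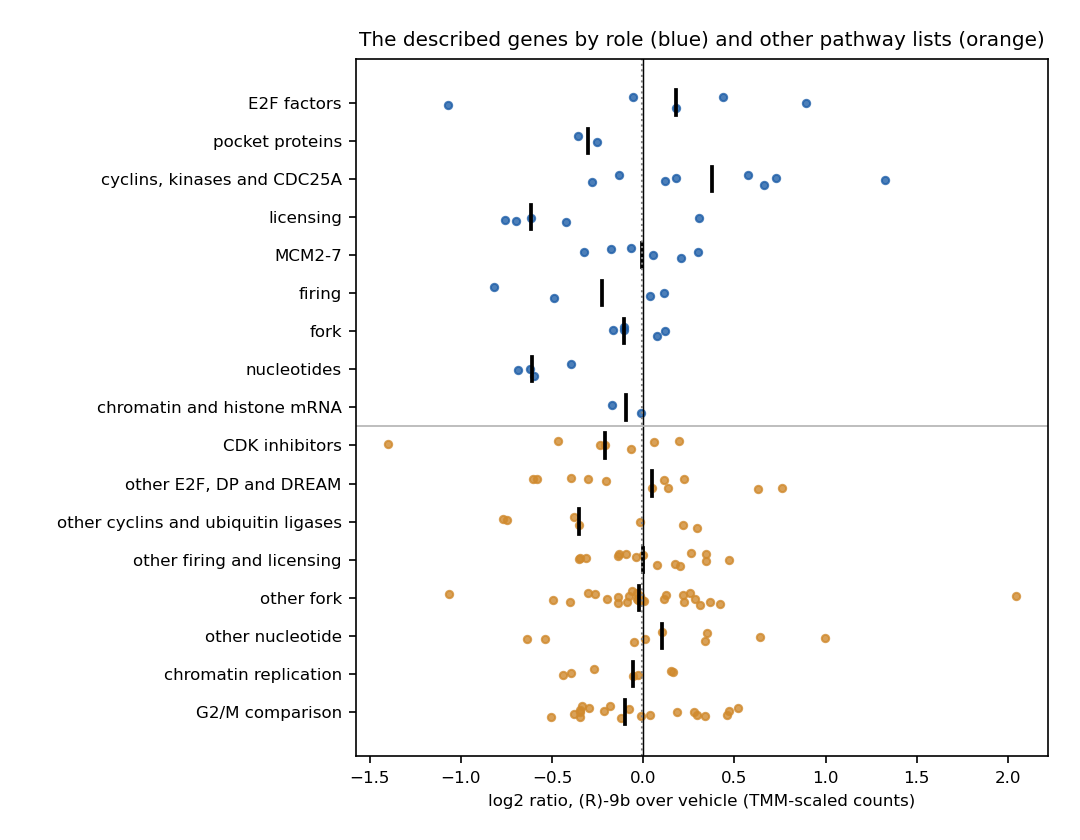
Log2 ratio of single genes, (R)-9b over vehicle, on the x axis, in rows by role for the 41 genes (blue) and for the other lists (orange). Each point is 1 gene, black bars are medians, and the dotted line is the median of all genes tested. Licensing and nucleotide genes have the lowest medians among the roles, both -0.61, and the E2F row spreads from -1.07 to 0.89.

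The deposited transcript table gives estimated counts for 40 of the 41 genes, and for 29 of them it lists every transcript of the annotation. The other 11 genes, CDK4, E2F7, MCM2, MCM3, MCM7, PCNA, POLE2, RRM1, RRM2, TK1 and TYMS, are listed in part, and their transcript make-up was not analysed here. Of the 29, 25 had the same most abundant transcript in both libraries, and the median share of that transcript was 84.4% in vehicle and 84.5% in (R)-9b. CCNE1-201 made up 70.8% of CCNE1 in vehicle and 77.6% in (R)-9b, and CCND1-201 made up 94.9% and 96.1% of CCND1.

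The leading transcript differed between the libraries in 4 genes, E2F3, CDC6, MCM10 and MCM5. For E2F3, whose transcripts start at different positions, E2F3-201 went from 231 to 430 estimated counts and E2F3-202 from 287 to 334, so that the share of E2F3-201 went from 43.4% to 54.9%. Both E2F3 transcripts were higher, by a log2 ratio of 1.14 (0.91 to 1.38) and 0.47 (0.24 to 0.70), and these intervals do not overlap. They start at base 20402167 and base 20403679 of chromosome 6 on GRCh38. For MCM5, MCM5-201 was higher at 0.43 (0.31 to 0.54) and MCM5-202 lower at -0.46 (-0.57 to -0.35), while the gene as a whole was near 0. The same held for MCM10, with MCM10-202 at 0.39 (0.14 to 0.63) and MCM10-206 at -0.35 (-0.62 to -0.08). Estimates for transcripts that share most of their exons carry an assignment error that these intervals leave out.

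**Figure D4:**
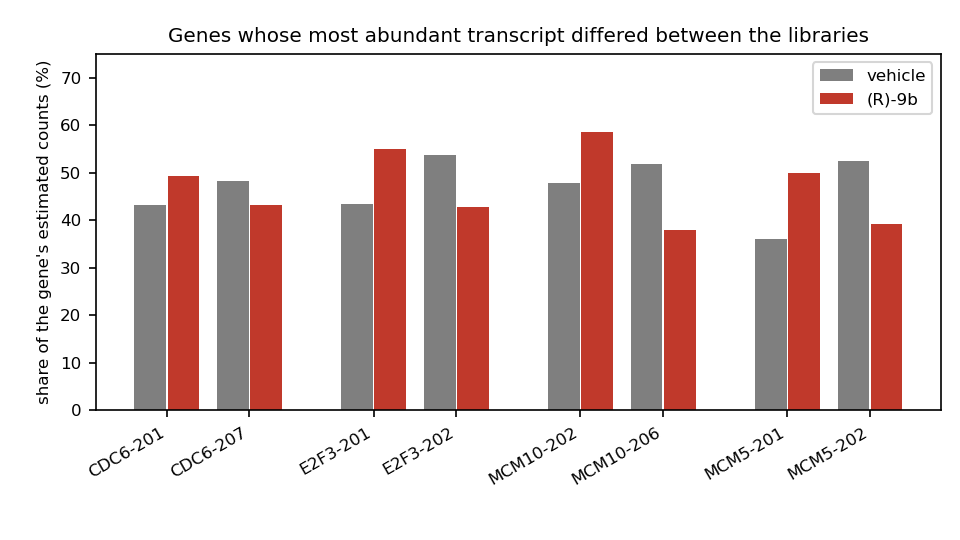
Share of each gene's estimated counts, in percent on the y axis from 0, held by its leading transcripts in vehicle (grey) and (R)-9b (red), for the 4 genes whose most abundant transcript differed. Each bar is 1 library, with no replicate. E2F3-201 went from 43.4% to 54.9% and MCM5-202 from 52.4% to 39.2%.

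Some of the 41 genes share exon bases with a neighbour on the other strand. The strand setting of the counting is not given in the sources used here. Only unambiguous reads were counted, so reads in shared bases may have been left out of both genes. Levels per kb divide by the full exon length, so those of genes such as CDK4 and CCNE2 may be too low. TSPAN31 covers 43.2% of the exon bases of CDK4, ENOSF1 covers 39.2% of those of TYMS and INTS8 covers 37.0% of those of CCNE2. On the same strand, AC007240.1 covers 20.2% of RRM2. On the other strand, AC023593.1 covers 22.7% of MCM2, AC025162.1 covers 14.5% of CDK2, LTO1 covers 10.3% of CCND1, and for AP4M1 over MCM7 the value is 8.94%. AC025162.1 had 0 counts in both libraries. ENOSF1 had 2053 and 2093 counts and INTS8 had 1817 and 2037, so these partners had more counts in (R)-9b where TYMS and CCNE2 had fewer. TSPAN31 (1154 and 924 counts), AC023593.1 (360 and 222) and AP4M1 (1457 and 1219) had fewer counts in (R)-9b, as CDK4, MCM2 and MCM7 did. These neighbour counts are before scaling, and the (R)-9b library was the shallower one. Fewer counts in it do not by themselves mean a lower level, and scaled ratios of the neighbours were not computed. Named pseudogene copies of these genes had few counts. The most abundant was RRM2P3, with 98 in vehicle and 45 in (R)-9b beside the 8832 and 4654 counts of RRM2 itself.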

How the data were processed

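RNA sequencing of C4-2B cells was analysed in 1 vehicle and 1 (R)-9b library, assigned from the treatment labels. Reads were aligned to hg38 with STAR 2.5.1a, and featureCounts 1.4.6-p5 and Salmon 0.8.2 are also named in the submitters' processing notes, though the paper's methods name another STAR release. The authors deposited gene counts of uniquely aligned unambiguous reads as whole numbers. They also deposited the same genes as CPM and as moderated log2 CPM, used here only as alternatives, and they deposited a table of estimated counts per transcript, which need not be whole. These expected counts were rounded here for intervals. The transcript CPM and the transcript log2 table deposited by the authors were not used.

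Of 60871 lines, 200 repeated lines were dropped, which left 60671 genes. Counts were scaled with TMM (edgeR 4.0.16, R 4.3.3), with a minimum of 10 counts summed over the pair of libraries. Exact (Clopper-Pearson) 95% intervals of each ratio were computed with scipy 1.17.1, numpy 2.4.6 and pandas 2.3.3 under Python 3.11.15. Intervals of ratios of levels within a library came from the delta method on the log scale. No model of replicate spread and no test were run, because there was 1 library per condition. The interval code was tested on simulated data. At 65207444 and 57653965 counts, counting error is small for abundant genes and widens for genes with few counts, and replicate spread is not measured. In both libraries over 70% of low counts (1 to 20) were even numbers, and so mates of a read pair may each have been counted.

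Every gene of the list was named under its role, and the other lists by their highest and lowest gene and by CDKN1A and CDKN1B, except for 1 gene that is not reported here. The genes and lists were chosen with earlier results of these data known. Exon lengths, coordinates and overlaps are from GENCODE 29 (GRCh38), and promoters from RefSeq GRCh38.p14. Figures were drawn with matplotlib 3.10.9.

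The alternatives were total-count, DESeq2 1.42.0, upper-quartile and mitochondria-free scaling, halved counts, minimums of 1 and 50 counts, the deposited CPM and log2 CPM, estimated transcript counts, an added coefficient of variation of 0.1, the ratio alone without its interval, and protein-coding genes as the background.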

Additional observations from a re-analysis of the deposited data

How the results depend on the processing

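No paired analysis was possible because each condition has 1 library and the labels carry no replicate numbers, and for the same reason no library could be left out. With a coefficient of variation of 0.1 added, 6 genes were above a ratio of 1 (14 as reported), 10 below (21), 1 above 1.5 (4) and 1 below 1/1.5 (4). Total-count scaling put 7 genes below 1/1.5, and the point ratio put 8 there. The shares of all genes tested were not computed under these settings. Counts below a ratio of 1 were 12 with estimated transcript counts. Over the 29 genes with every transcript listed, an alternative chosen after seeing the data, 9 were below with estimated transcript counts and 12 with gene counts, and 2 were below 1/1.5 with either, fewer because fewer genes were counted. The median log2 ratio was -0.00076 with estimated transcript counts, over all genes in that table and over the 29. Single genes turned sign in 10 of 437 values. In 4 of these the reported interval included 0: MCM10 was at -0.02 with total counts, deposited CPM and moderated log2 CPM, and SLBP at 0.02 with upper-quartile scaling. In the other 6, MCM4 was at -0.0050 with total counts, deposited CPM and moderated log2 CPM, and with estimated transcript counts MCM7 was at 0.69, PCNA at 0.0084 and RRM1 at 0.84. The transcripts of MCM7, PCNA and RRM1 are listed in part, as are those of TK1, TYMS and MCM2, which moved to -0.07, -0.25 and -0.49. In vehicle the listed transcripts held from 0.00789 (MCM7) to 0.0803 (TYMS) of the gene counts of these genes. Across the scalings the median of the 41 genes ranged from -0.17 to -0.07, and with halved counts 11 genes were above a ratio of 1 and 19 below. Protein-coding genes as the background gave 8.67% above 1.5 and 8.21% below 1/1.5. The spread between cultures is not known.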
